A study of Arabidopsis thaliana with 8 samples.

Results

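The 500 brightest probe sets of dry Arabidopsis seed were described here, as a picture of the transcripts that a mature seed carries before it takes up water. Members were chosen by ranking all 22746 probe sets that are not array controls by their mean signal over the 2 dry seed arrays, labelled A and B, and taking the top 500, or 2.20% of the ranked probe sets. The seed was wild-type Col-0, untreated and dry. Its total RNA was labelled with biotin and hybridised to single-colour arrays, where several short probes, together a probe set, report 1 transcript. The series holds 8 arrays in 4 groups of 2, and the other groups were Col-0 seed imbibed for 24 h in water, in 3 µM abscisic acid (ABA) or in 30 µM ABA. All material came from whole seed, so fewer cells of a type and less RNA per cell cannot be told apart. Nothing in the labels says that arrays A and B came from separate seed lots, so their spread may be technical.

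A seed fills with storage proteins and oil as it matures on the mother plant, and then dries. Messenger RNA made late in maturation stays in the dry embryo and endosperm and is known as the stored transcript pool. Late embryogenesis abundant (LEA) proteins and dehydrins, a hydrophilic family made as the seed dries, are known for protecting membranes and proteins in the dry state. Oleosins coat the oil bodies, and cupins such as cruciferins and vicilins are packed into protein storage vacuoles and broken down after germination. ABA is the hormone that drives maturation and keeps the seed dormant.

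The top 500 carried 29.0% of the total mean signal of the ranked probe sets. The same 500 probe sets held 32.2% of the signal on array A and 25.5% on array B. The signal is the deposited intensity on a linear scale, and it depends on how well each probe set binds its transcript as well as on how much transcript there is, so the order is one of signal and not of transcript numbers. No single probe set dominated, since the 10 brightest held 0.955% of the signal, the 50 brightest 4.43% and the 100 brightest 8.40%. It took 395 probe sets to reach 25% of the signal, and 1357 for 50%, 3602 for 75% and 6768 for 90%. On each dry array taken alone, the 500 brightest probe sets held 32.4% on A and 26.1% on B. On the imbibed arrays, ranked each by its own signals, the 500 brightest held at most 25.4%.

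**Figure D1:**
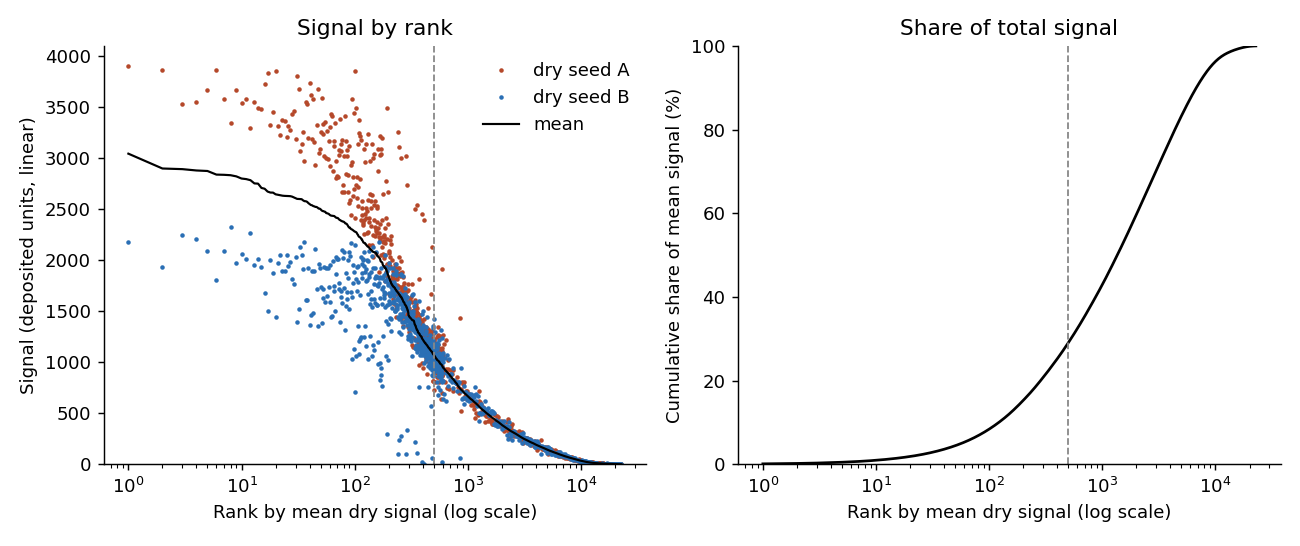
Left, signal on dry seed arrays A (red) and B (blue) and their mean (line) for every ranked probe set, against rank by mean signal on a log axis. Right, the cumulative share of mean signal in percent. The dashed line marks rank 500, where the mean signal was 1074 and the cumulative share 29.0%. The 2 arrays part most at the brightest ranks, where A lies above B.

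Missing gene names limit what can be said of the list. Of the 500 members, 237 matched a single gene, 10 matched several genes and 253 had no gene name here. The single-gene members held 13.8% of the total signal and the unnamed ones 14.7%. Unnamed probe sets made up 50.6% of the members against 38.4% of all ranked probe sets. The brightest of all was unnamed, probe set 252515_at, at 3908 on A and 2181 on B, and only 4 of the top 10 and 48 of the top 100 matched a single gene. A function was assigned to 161 of the 237 single-gene members, which together held 9.44% of the total signal, and the other 76 (4.39%) carry only a locus code. The shares given for each function below cover these 161 members only.

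The tissue label was set against marker genes. Of 17 mature seed markers 3 had a named probe set, and 2 of these were members, the oleosin AT3G01570 and the vicilin-like storage protein PAP85. The other one, the oleosin OLEO3, stood at rank 818, with 919 on A and 618 on B. Of 12 leaf and photosynthesis markers 3 were measured and none was a member, which says little for so few genes. All 3 lay above the median of 21.3 over all ranked probe sets, with LHCB4.1 at rank 1443. LHCB4.1, an antenna protein of photosystem II, had a mean signal of 506 ± 21.8 (SD, n = 2), LHCB4.2 107 ± 38.3 and RCA, the activase of Rubisco, 39.3 ± 13.8. The 2 measured seed coat markers, both of flavonoid synthesis, were dim, DFR at 13.7 and BAN at 1.28, beside a median of 21.3 over all ranked probe sets. Marker lists for root, pollen, flower and endosperm had no named probe set.

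Transcripts of storage proteins were near the top. Of 13 listed loci of storage proteins and cupins only 5 had a named probe set. Of these 5 genes, 4 (80%) were members, beside 2.20% of all ranked probe sets. The 4 members held 0.274% of the total signal. This share leaves out the listed loci without a named probe set. AT2G28490, a vicilin-like cupin, read 3810 on A and 1392 on B and ranked 31. PAP85 read 3175 and 1251 and ranked 114. Both were far brighter on A. AT1G03890, a cruciferin-like protein, was even between the arrays at 2056 and 1919, a mean of 1987 ± 96.4 (SD, n = 2). AT4G36700, another cupin, had a mean of 1435 ± 276. The remaining measured gene of the list, AT2G18540, was far dimmer, at 45.6 on A and 49.0 on B, rank 9003.

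Oil body proteins had 5 members with 0.354% of the signal. Of 10 listed loci only 3 had a named probe set, and 2 of these (66.7%) were members, beside 2.20% of all ranked probe sets. The other members were assigned by family. The share leaves out the listed loci without a named probe set. The oleosin AT3G01570 read 3618 on A and 1464 on B and ranked 41, and the oleosin AT3G18570 read 1502 and 1315 and ranked 331. AT2G25890, of the oleosin family, had a mean of 2460 ± 1144 (SD, n = 2). AT5G56100, an oleosin-related glycine-rich protein, had 2394 ± 1407. AT3G05500, of the family that includes lipid droplet proteins of rubber plants, had 1834 ± 366. All 5 were higher on A, by a median of 1.98-fold.

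Among the named members, LEA proteins and dehydrins made up the largest class with a definite function. The class had 21 members, 8 of them among the 100 brightest, and they held 1.47% of the total signal, or 5.07% of the signal of the top 500. Of 51 listed LEA and dehydrin loci, 35 had a named probe set and 19 of these (54.3%) were members, while 2.20% of all ranked probe sets were. The median signal of the 35 was 1258, against 21.3 over all ranked probe sets. A further 2 members, AT4G25580 and AT1G47980, were assigned from their families of cold, drought and desiccation proteins.

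The brightest was the dehydrin LTI30, which read 3534 on A and 2251 on B and ranked 3 overall. AT3G17520 read 3682 and 1519, LEA18 read 3530 and 1614, and the seed maturation protein AT3G22490 read 3185 and 1892. These 4 ranked 3 to 42, and on array B LTI30 was the third brightest of all probe sets. Members that were nearly even between the arrays ranked lower, such as AT5G44310 at 2259 and 2082, AT3G02480 at 1681 and 1788, and AT2G23120 at 1207 and 1309. LEA members were higher on A in 19 of 21 cases, with a median ratio of 1.82.

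Not all measured LEA genes were bright, though 25 of the 35 lay above the median of all ranked probe sets. Below the top 500 the measured genes of the family fell from AT2G18340, at rank 567, through AT4G39130 and AT2G46140 to very low signals. Of the 35 genes, 10 lay at or below the median of all ranked probe sets. Among these were the cold-regulated genes COR47, COR15B and COR15A, known for their rise in cold-treated leaves, at mean signals of 6.57, 11.5 and 0.745. AT2G33690 was the dimmest at 0.425. The brightest and the dimmest genes of the family lay far apart, as the plot of LEA members shows gene by gene.

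**Figure D2:**
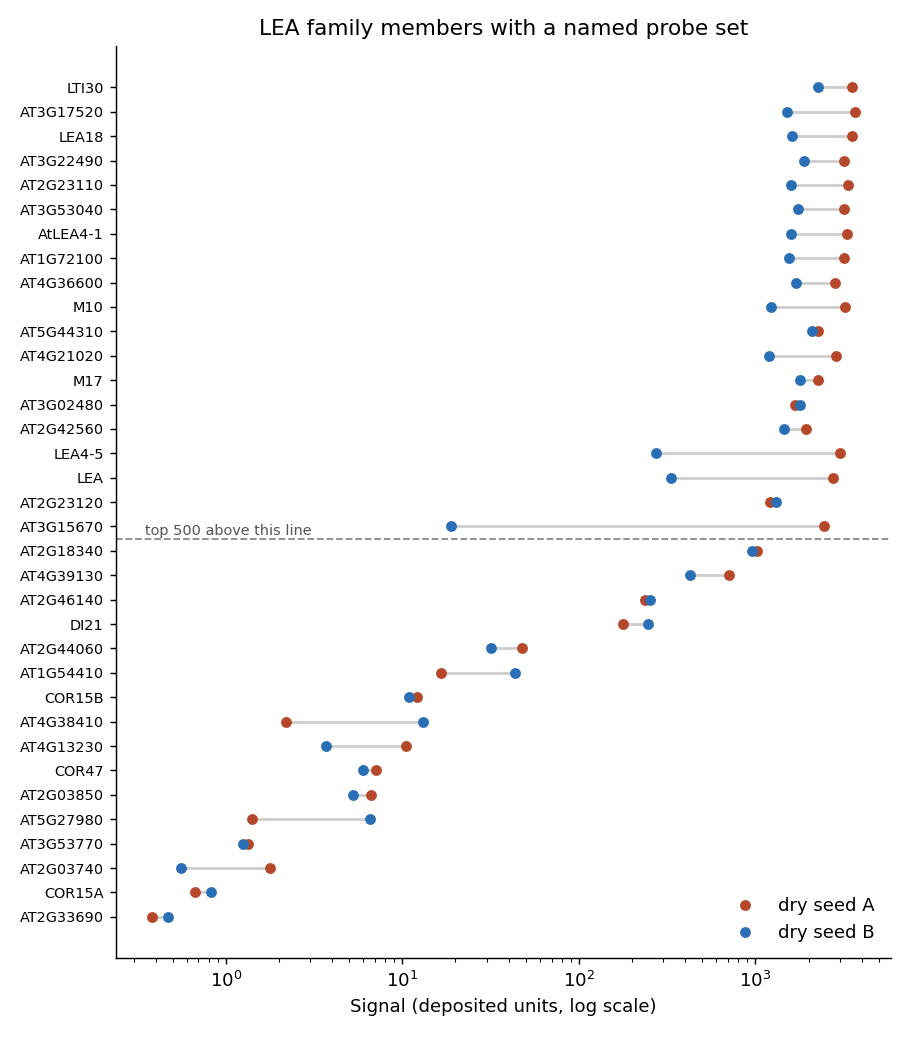
Signal of the 35 LEA and dehydrin genes with a named probe set on dry seed arrays A (red) and B (blue), on a log axis, ordered by mean signal. The 19 genes above the dashed line are in the top 500. LEA4-5, LEA and AT3G15670 lie in the top 500 through array A, with B at 274, 332 and 18.8.

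Proteins that handle reactive oxygen and aldehydes, which accumulate in drying and ageing seed, had 11 members with 0.678% of the signal. Of the 69 probe sets that the tables place in this class, 3 (4.35%) were members, beside 2.20% of all ranked probe sets. The median signal of the 69 was 12.7, against 21.3 over all ranked probe sets. The other members were assigned by family. AT5G01670, of the aldo-keto reductase family, ranked 5 at 3663 on A and 2085 on B. AT3G56350, of the iron and manganese superoxide dismutase family, read 3733 and 1368. The glutaredoxins GRXC1 and GRXC2, small thiol reductases, had means of 2034 ± 402 and 1093 ± 52.9 (SD, n = 2). ALDH7B4, an aldehyde dehydrogenase, was even between the arrays at 1880 and 1933. AT4G33670, the L-galactose dehydrogenase of ascorbate synthesis, was a member too, at 1415 ± 129.

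Heat shock proteins and chaperones had 3 members with 0.160% of the signal, all of them assigned by family. AT2G20560 and AT5G16650, of the DnaJ family of co-chaperones, had means of 1645 ± 57.3 and 1535 ± 24.9 (SD, n = 2). AT1G52560, a small heat shock protein, had 1635 ± 347. They ranked between 254 and 289. Of the 9 chaperone genes placed by the name tables none was a member, and their median signal was 81.6.

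Members with a described function outside these classes numbered 21 and held 1.42% of the signal. Of the 908 probe sets that the tables place here, 7 (0.771%) were members, below the 2.20% of all ranked probe sets. The other members were assigned by family. A few of the 21 members, picked after their values were seen, are named here. TIL, a lipocalin that protects membranes from heat and oxidation, read 3555 on A and 1950 on B and ranked 13. DI19, a drought-induced gene, read 3258 and 1739. The 3 major latex protein-like genes AT1G14930, AT1G14940 and AT1G14950 had means of 1972, 2391 and 2616, and they lie next to each other in the genome. The universal stress protein family had 2 members at 2531 and 2276, and AT2G38905, of a family of small membrane proteins induced by cold and salt, had 2385 ± 971 (SD, n = 2).

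Defence proteins, lipid transfer proteins and protease inhibitors, which are small and often secreted, had 8 members with 0.590% of the signal. Of the 18 probe sets that the tables place in this class, 2 (11.1%) were members, beside 2.20% of all ranked probe sets. The other members were assigned by family. The jacalin-type lectin AT3G21380 read 3222 on A and 2054 on B. The thionin family gene AT2G15010 read 3197 and 1922, and AT2G38870, a potato inhibitor I-type serine protease inhibitor, 2875 and 1996. The defensin-like genes PDF2.1 and LCR67 read 3028 and 3037 on A but 994 and 1119 on B. All 8 were higher on A, with a median ratio of 2.12.

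Protein degradation had 18 members with 0.982% of the signal, the next largest definite class after LEA proteins. Proteases were at its head. AT3G54940, a papain-type cysteine protease, read 3838 on A and 1507 on B. The aspartic protease APA1 read 3116 and 1749, and BETA-VPE, a vacuolar processing enzyme that matures seed storage proteins, 2932 and 1686. The ubiquitin system followed, with the conjugating enzymes UBC28 at 2291 ± 475 and UBC30 at 1269 ± 26.5 (SD, n = 2), 6 RING or U-box genes at means of 1185 to 1746, and the F-box protein SKP2A at 1142 ± 88.4. The autophagy genes APG8H and ATG8H had means of 1659 ± 267 and 1137 ± 76.0. Among the single-gene probe sets that the name tables and lists place in protein degradation, 9 of 114 (7.89%) were members, beside 1.75% of all single-gene probe sets.

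The 6 ribosomal protein members held 0.250% of the signal and ranked 271 to 482. All 6 were assigned by family, as the tables and lists placed no probe set in this class. AT3G09200, of the acidic ribosomal protein P0 family, was almost equal on the arrays at 1587 and 1595. AT3G09630, of the L4 family, was higher on B, at 885 on A and 1446 on B. Of the 7 translation probe sets placed by the tables none was a member. The 4 translation factor members, all assigned by family, held 0.208%. AT5G63190, an MA3 domain regulator of translation, was the brightest of them at 2698 and 1880 and ranked 98. AT4G27130 and AT5G54940, of the SUI1 family that helps select the start codon, had means of 1411 ± 125 and 1168 ± 57.8 (SD, n = 2). The elongation factor AT5G19510 read 1148 on A and 1592 on B. The 4 genes of elongation factor EF1A share 1 probe set, which read 3274 and 1981, ranked 27 and cannot be split between them.

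Transcription factors had 6 members with 0.412% of the signal, and 3 of these were among the 100 brightest. Of the 96 transcription factor probe sets placed by the tables, 2 (2.08%) were members, close to the 2.20% of all ranked probe sets. The other 4 members were assigned by family. AT1G21000 and AT1G76590, of the plant-specific PLATZ family, had means of 2662 ± 1114 and 2216 ± 258 (SD, n = 2). AT1G75490 and AT5G18450, of the DREB group that acts in drought responses, read 3206 and 2665 on A and 2054 and 2102 on B. EIN3, the central factor of ethylene signalling, was even at 1398 and 1406. STZ, a zinc finger repressor of stress responses, read 1307 and 876.

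Signalling proteins had 8 members with 0.369% of the signal, none of them in the top 100. Of the 30 signalling probe sets placed by the tables none was a member, so all 8 members were assigned by family. They included 3 genes of the protein phosphatase 2C family, AT4G31860 at 1574 ± 71.4, AT2G34740 at 1371 ± 335 and AT3G15260 at 1351 (SD, n = 2), and 3 EF-hand calcium-binding genes, of which AT2G44310 was the brightest at 1732 ± 120. Of 17 listed genes of ABA and gibberellin signalling 5 were measured, and none of these was a member. GID1A, a gibberellin receptor, ranked 809 at 777 ± 55.3, and EEL, a bZIP factor of seed maturation, ranked 1531 at 484 ± 18.1. The receptor GID1C and the F-box protein SLY1, which releases gibberellin responses, were at 99.1 ± 15.4 and 98.0 ± 9.73. The receptor GID1B was at 1.42.

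Carbohydrate and energy metabolism had 5 members with 0.269% of the signal, among them the glycolytic enzyme GAPC2 at 1656 ± 13.9, the pyruvate decarboxylase PDC2 at 1609 ± 119 and the sorbitol dehydrogenase AT5G51970 at 2126 ± 412 (SD, n = 2). Lipid metabolism had 3, of which ICL, the isocitrate lyase of the glyoxylate cycle that turns stored oil into sugar, read 3260 on A and 100.4 on B. AIM1, an enzyme of fatty acid beta-oxidation, was even at 1071 and 1277. Transport had 5 members with 0.212%, led by AT5G14120 of the major facilitator family at 1908 ± 47.1 and including the sugar transporter SWEET6 at 1127 ± 107. Other enzymes numbered 23 with 1.17% of the signal, and the brightest were AT1G19540, isoflavone reductase-like, at 2440 ± 684 and AT3G05260, a short-chain dehydrogenase, at 2437 ± 1403, at ranks 61 and 62. Of the probe sets placed by the tables, 3 of 40 in carbohydrate and energy metabolism (7.50%) and 2 of 14 in lipid metabolism (14.3%) were members. The counts were 2 of 42 (4.76%) in transport and 6 of 214 (2.80%) in other enzymes, beside 2.20% of all ranked probe sets.

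The rest of the named functions were few, and all their members were assigned by family. The tables placed 71 probe sets in cell wall, cytoskeleton and membrane traffic, 31 in chromatin and 9 in RNA binding. None of these was a member. Cell wall, cytoskeleton and membrane traffic had 3 members, AT3G16120 of the dynein light chain family at 1750 ± 241, the signal recognition particle receptor subunit AT4G30600 at 1434 ± 4.85 and the remorin AT2G45820 at 1262 ± 13.9 (SD, n = 2). The only RNA-binding member was AT4G16830 at 1584 ± 271, and the only chromatin member was the histone AT1G08170, of the H2B family, at 1414 ± 493.

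Members from the organelle genomes held a small part of the signal. Of 69 plastid-encoded probe sets 4 (5.80%) were members, with 0.180% of the signal, beside 2.20% of all ranked probe sets. The median signal was 133 over the plastid-encoded and 150 over the mitochondrion-encoded probe sets, against 21.3 over all ranked probe sets. psbM, a small subunit of photosystem II, was the brightest at 2032 on A and 2130 on B, and petB, ndhI and psbF had means of 1191 ± 29.1, 1077 ± 83.7 and 1074 ± 112 (SD, n = 2). Of 23 mitochondrion-encoded probe sets only that of cox2 (4.35%), a subunit of cytochrome c oxidase, was a member with a single gene, at 1225 ± 185. Members of these classes were close to even between the arrays.

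Some of the very brightest single-gene members have no assigned function. AT5G07330 read 3868 on A and 1810 on B and ranked 6. AT3G15280 read 3344 and 2322, and its signal was the highest of any probe set on array B. AT1G54860 read 3725 and 1676, AT3G14595 3375 and 1889, AT1G27990 3369 and 1892, and AT1G05340 2974 and 2183. In all, 12 of the 100 brightest members were single-gene probe sets known here by a locus code alone. Before families were assigned, 171 of 11701 single-gene probe sets with only a locus code (1.46%) were members, beside 1.75% of all single-gene probe sets.

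**Figure D3:**
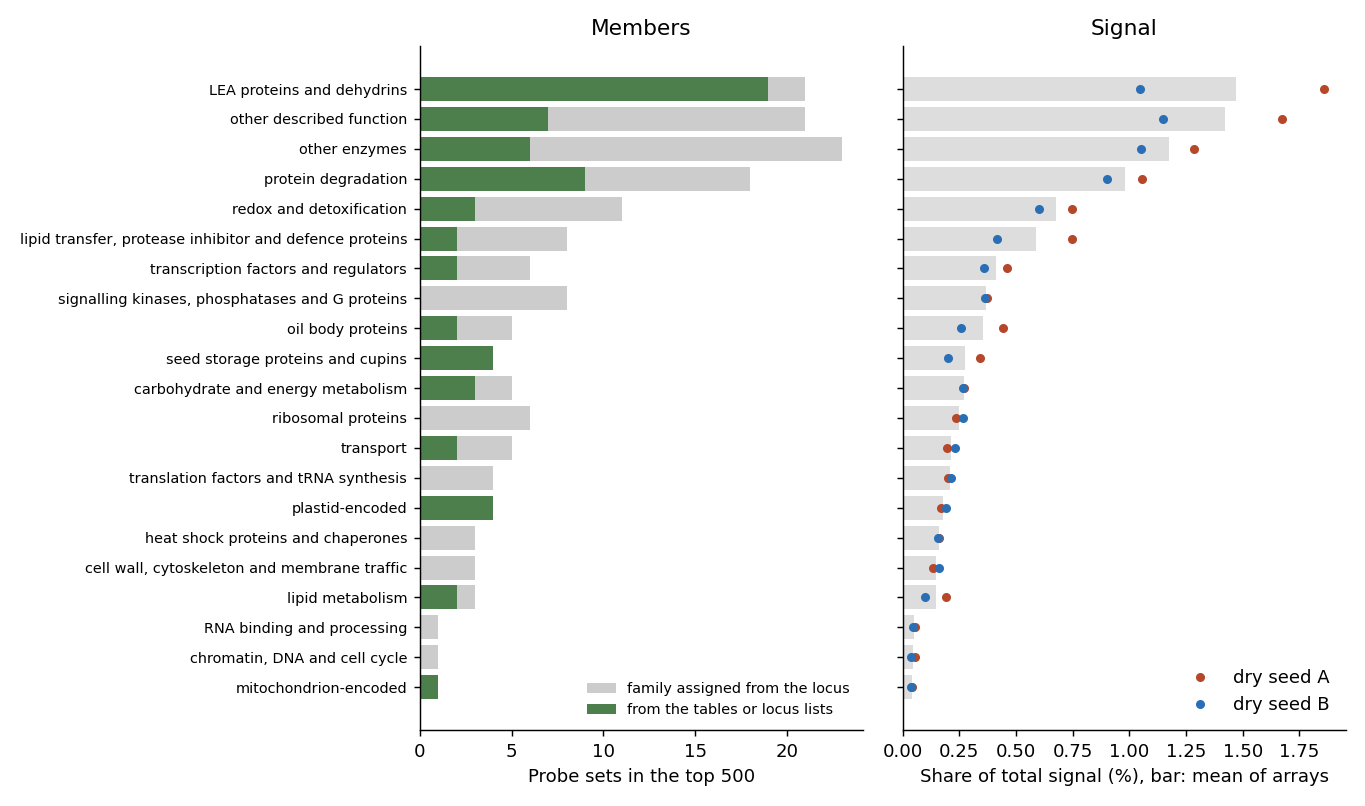
Left, the number of single-gene top 500 members in each function class, split by whether the class came from the name tables and locus lists (green) or from the gene's family (grey). Right, the share of total signal in percent of each class, as the mean of the dry arrays (bar) and on A (red) and B (blue). LEA proteins and dehydrins held 1.86% on A and 1.05% on B, while ribosomal proteins held 0.235% and 0.267%.

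The list was stable between the arrays but the order at its head was not. Of the 500 members, 427 (85.4%) were in the top 500 of both arrays, 43 in that of A only and 30 in that of B only. Of the 100 brightest probe sets on A, 34 were among the 100 brightest on B. Signals were higher on A for 377 members and on B for 123. All of the 100 brightest by mean were higher on A, with a median ratio of 1.77 for ranks 1 to 50 and 1.76 for ranks 51 to 100. The median ratio then fell to 1.35 for the next 100 ranks, and lay between 1.04 and 1.07 for each further 100 ranks down to rank 500. Spearman's correlation of A and B was 0.949 over the 22746 probe sets and 0.503 over the 500 members, across probe sets that share both arrays and were chosen for high signal. The highest signal was 3908 on A and 2322 on B. When all probe sets were ordered by A alone, the median on B was 1651 for the first 50, 1648 for the next 50, 1821 for the following 100 and 1585 for the 100 after those, so it did not follow the fall on A.

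The excess of A over B was not shared by all functions. It was largest for defence proteins, oil body proteins, storage proteins and LEA proteins, whose median ratios were 2.12, 1.98, 1.93 and 1.82. The median ratio was 1.04 for ribosomal proteins, 1.12 for protein degradation, 0.960 for plastid-encoded members and 0.907 for translation factors. All of the 100 brightest members were higher on A. They included 4 of 8 defence, 3 of 5 oil body, 1 of 4 storage and 8 of 21 LEA members. They also included 4 of 18 protein degradation and 1 of 4 translation factor members. For ribosomal and plastid-encoded members the counts were 0 of 6 and 0 of 4. The 3' to 5' signal ratio of the GAPDH control, a sign of RNA quality, was 1.81 on A and 1.69 on B, and that of the actin control was 4.34 and 4.52. A second set of control probe sets for these genes was closer to even between the ends. Its actin probe sets read 1005 on A and 1165 on B at the 3' end, and 961 and 1302 at the 5' end. Its GAPDH probe sets read 241 and 227 at the 3' end, and 217 and 254 at the 5' end. Bright controls differed in direction. The ubiquitin control read 2267 on A and 1052 on B at the 3' end but 1931 and 2216 in the middle, and another 3' ubiquitin control read 3508 and 654. A pair of cre spike-in controls read 2961 and 2252 at the 3' end and 3206 and 2130 at the 5' end. The actin control at the 3' end read 684 and 755. No probe set that is not a control exceeded 2322 on B, while the highest on A was 3908. The part of such array differences in the order of the members was not tested.

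In 13 members the signal on A was over 4 times that on B, and no member had the reverse. Of these, 6 matched a single gene and 7 were unnamed. AT3G15670, a LEA protein, read 2453 and 18.8, ICL 3260 and 100.4, AT1G04560, of the AWPM-19-like membrane protein family, 2537 and 107, and the short-chain dehydrogenase AT1G54870 2498 and 218. LEA4-5 read 2999 and 274, and the dehydrin LEA 2738 and 332. The widest gap was in the unnamed probe set 254095_at, at 2398 and 1.79. These members were picked for a low B. Of these 13 members, 10 had B below all 6 imbibed arrays. Among the 500 brightest probe sets on A, 19 had B below all 6 imbibed arrays. In 16 of those 500, A was over 4 times B, and 13 met both conditions. Among the 500 brightest on B, 19 had A below all 6 imbibed arrays, but in none was B over 4 times A. For AT3G15670 the imbibed arrays ranged from 954 to 1409, between the dry values. The rank of these members rests on array A.

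**Figure D4:**
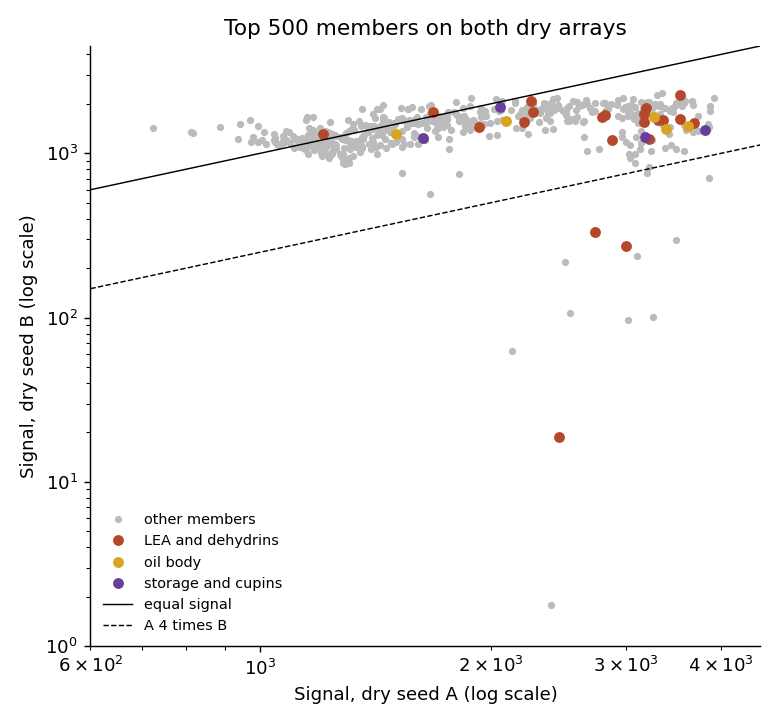
Signal of the 500 members on dry seed arrays A and B, both axes on a log scale, with LEA proteins and dehydrins (red), oil body proteins (gold) and storage proteins (purple) marked. The solid line is equal signal and the dashed line is A at 4 times B. The 13 members below the dashed line include 3 LEA genes, and no member exceeds 2322 on B.

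Rank 500 is not a natural boundary. The mean signal was 1074 at rank 500 and 1071 at the next rank. The single-gene probe sets just inside were psbF, at 1074 ± 112 (SD, n = 2), and AT5G65660, at 725 on A and 1426 on B. Just outside were AT1G15430 at 1065 ± 228 and AT5G17190 at 1065 ± 185. The differences across the edge were smaller than the spread between the arrays.

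Some members were neighbours in the genome, in the order of nuclear protein-coding genes. Among 5814 pairs of measured adjacent genes, 8 had both genes in the top 500. A neighbour in the top 500 was found for 15 of 170 members with a measured neighbour (8.82%) and for 197 of 8658 other genes (2.28%). Besides the 3 latex protein-like genes, the pairs were the LEA genes M17 and M10, the LEA genes AT2G23110 and AT2G23120, SAMDC of polyamine synthesis with the LEA gene AT3G02480, AT1G54860 with AT1G54870, AT1G19530 with AT1G19540, and AT5G06360 with AT5G06370. Related neighbours can share sequence, so their probe sets may not be independent.

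The members' signals on the imbibed arrays are given only as description, since the members were chosen for high signal in dry seed. Of the dry top 500, 115 (23%) were also in the top 500 of water-imbibed seed, 122 in that of 3 µM ABA, 135 in that of 30 µM ABA and 93 in all 3. The dry members held 9.53% to 11.3% of the signal on the imbibed arrays. The 21 LEA members held 0.333% of the signal in water, 0.407% in 3 µM ABA and 0.548% in 30 µM ABA, against 1.47% in dry seed. The 6 ribosomal members held 0.304% in water, 0.210% in 3 µM ABA and 0.195% in 30 µM ABA, against 0.250% in dry seed, and 6, 4 and 3 of them were in the top 500 of these groups. The 3 chaperone members held 0.00935% in water. The 9 chaperone genes placed by the tables, none of them a member, ran the other way as a sum but not in every gene. Together they reached 1160 on dry array A and 1020 on dry array B, against 2450 and 2496 after imbibition in water. ATHSP22.0, the brightest of them in dry seed, fell from a mean of 319 to 9.90 in water. Each of the rest had a higher mean in water, such as Cpn60beta2 at 891 against 168 in dry seed. The deposited scaling gives each array the same trimmed mean, so these shares say nothing about total messenger RNA. The 3' to 5' ratio of the GAPDH control was 1.81 and 1.69 on the dry arrays but 0.371 to 0.927 on the imbibed ones. For actin it was 4.34 and 4.52 against 2.30 to 3.80. For ubiquitin the ranges overlapped, at 1.10 and 1.01 against 0.722 to 1.83. The part of this difference in the shares was not tested. On the dry arrays, the second set of GAPDH and actin control probe sets was closer to even between the ends. That set was not compared with the imbibed arrays.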

How the data were processed

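The authors deposited 1 signal intensity per probe set and array on a linear scale, and the submitters' processing notes name MAS5, with no version. The 2% trimmed mean was close to 100 on every array. Aligners and builds do not apply, and no detection calls were used here. Intensities were used as deposited, without log transformation. Probe sets with control names (64 of 22810) were left out, and the rest were ranked by the mean of the 2 dry arrays. Array number limits the precision, and means are given with the SD of both arrays. No test was run, since the study of 1 group implies none.

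By the platform annotation, 13513 probe sets matched a single gene, 503 matched more than 1 gene and 8730 had no gene. Names and neighbours, but no coordinates, came from RefSeq's table for assembly TAIR10.1, which held 13436 of the single genes. A function class came from lists of loci, then from symbol and synonym patterns, and for 95 members with only a locus code from general knowledge of the gene's family, assigned after the ranking was seen. Such a gene has no class outside the top 500, so counts over the array use the lists and patterns alone. The members, lists and classes were chosen with earlier results of these data known. Genes were named by rule: the 20 brightest single-gene probe sets, the 4 brightest per class (2 for broad classes), those nearest rank 500, the 5 with the largest ratio between the arrays, and measured seed markers. Other genes named were chosen after their values were seen. Ranking and classification were tested on simulated data. Python 3.11.15, pandas 2.3.3, numpy 2.4.6 and matplotlib 3.10.9 were used. Promoter and protein sequences were not analysed here.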

Additional observations from a re-analysis of the deposited data

How the results depend on the processing

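Of 74 values recomputed under 9 alternatives for 11 results, 70 stayed within the spread between the dry arrays (shares) or within 1.5 times (counts). The spread was an SD of 4.50 percentage points for the share of the top 500 and 0.540 for the LEA share, a wide tolerance. It comes from the same 2 arrays, so shares with 1 dry array left out were all but bound to stay within it. With quantile normalization of the arrays, the top 500 held 23.4% of the signal in place of 29.0%, and the LEA members placed by the list 0.860%, the lowest of the alternatives run, in place of 1.34%. That LEA share still counted as within the spread. With 1 probe set per gene and single-gene probe sets only, the top 500 held 41.8%, the LEA members 2.73%, and plastid-encoded members numbered 7 in place of 4. Here fewer probe sets make up the total. Leaving out 1 dry array moved the share of the top 500 between 26.1% and 32.4%, and the LEA share between 0.914% and 1.70%. The count of LEA members was 16 to 20 under all alternatives run, and it was 16 without the probe sets that differ over 4-fold between the arrays, an alternative chosen after seeing the data. Storage protein members numbered 4 under every alternative in which they were counted. The promoter alternatives were not run. No paired analysis was possible because no test was run and only 1 group was described. The deposited signal carries no background limit here, so dim probe sets have no stated precision.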
